A study of Arabidopsis thaliana and Setaria viridis and Zea mays with 22 samples.

Results

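Nuclei from the root tips of sorghum (Sorghum bicolor, strain Btx623) were set against nuclei from the root tips of maize (Zea mays, strain B73), cluster by cluster, with the library as the replicate. The libraries were chosen by species and preparation from the table of grass cells, which gave 3 sorghum libraries and 4 maize libraries, 7 of the 22 samples of the series. They held 13066 of the 43212 grass cells of the series, of which 9775 were sorghum nuclei and 3291 were maize nuclei. The sorghum libraries held 3844 (Sorgh_Nucl), 3762 (Sorgh_Nucl1) and 2169 (Sorgh_Nucl2) nuclei, and the maize libraries held 113, 987, 939 and 1252 nuclei (replicates 1 to 4). Library values are given in that order throughout.

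The study integrated root tip cells of Arabidopsis and of 3 grasses, with walls digested (protoplasts) or with nuclei released by lysis. Per the labels' protocols, sorghum and maize seedlings were grown in paper rolls for 7 days and tips of 0.5 cm were cut from primary and seminal roots, while the age tag of both says 10 days. The labels name no mutation and no treatment for either species. How many plants or plantings a library stands for was not given in the sources used here, so the p-values measure how far these libraries scatter, and that scatter may be technical. The labels name chemistry version 3 of the 10x Chromium 3' kit for sorghum nuclei and version 2 for maize nuclei, but the barcodes go against the maize label. The first 7 bases of the barcodes of 100% of sorghum and of maize nuclei occurred among Setaria libraries labelled version 3. Among the Setaria protoplast library labelled version 2 they occurred for 10.4 to 11.2% of sorghum nuclei and for 6.19 to 11.3% of maize nuclei. That library held only 981 cells, so a low match to it says little by itself. Its own barcode starts occurred among the version 3 libraries for 28.1% of cells. The sorghum protoplast library, also labelled version 2, matched the version 3 libraries for 100% of cells, so labels and barcodes disagree there too. Over the 21 pairs of libraries, 0 to 6 barcodes were shared, 17 in all.

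The growing root tip holds a meristem, in which cells divide, beneath a protecting root cap, and behind it the files of epidermis, ground tissue and vascular tissue begin to differentiate. A nucleus carries newly made and not yet exported transcripts, and each captured transcript is tagged with a unique molecular identifier (UMI), so that UMIs count molecules. The number of different genes found in a nucleus climbs with its UMIs and levels off as the same genes are drawn again, so nuclei can be compared in their genes only at equal UMIs. The grass table assigns each nucleus to 1 of 19 clusters, numbered 0 to 18, from an integration of the 3 grasses at resolution 0.6. It holds no gene names and no marker genes, so the clusters are called by number and neither the root tissue nor any cell type could be checked against markers.

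The first comparison asked whether the clusters took different shares of the nuclei in sorghum and in maize. All 19 clusters held nuclei of both species and of all 7 libraries. The composition was even in both, with an effective number of clusters (the exponential of the Shannon entropy of the shares) of 15.1, 15.5 and 15.1 in the sorghum libraries and of 14.9, 14.1, 14.7 and 13.7 in the maize libraries. No cluster differed in share between sorghum and maize beyond the spread between libraries. Called were 0 of 19 clusters (0%) by edgeR's quasi-likelihood test, where the lowest Benjamini-Hochberg adjusted p was 0.515, and 0 had an unadjusted p under 0.05. DESeq2 and limma called 0 clusters as well. Exact permutation also called 0, but the smallest p that 35 splits allow is 0.0286. After adjustment over 19 clusters it could call none unless most clusters reached that p, so it adds little.

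**Figure D1:**
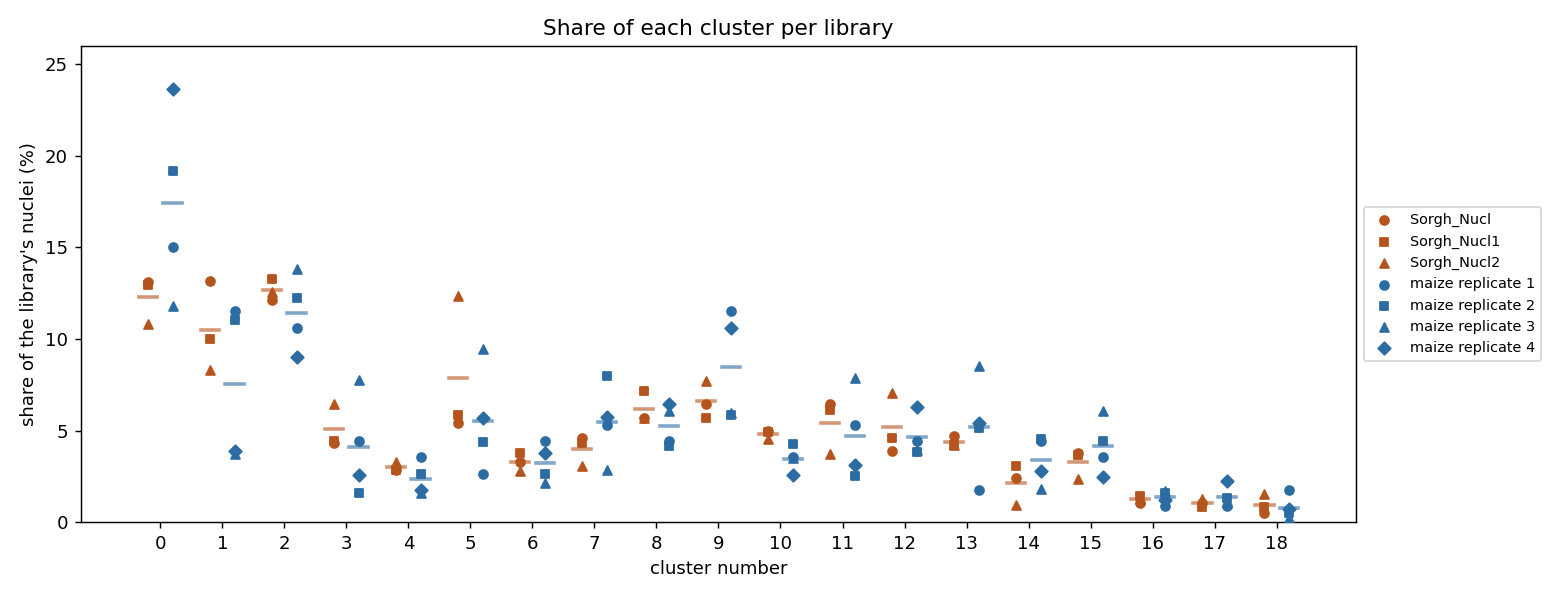
Share of each library's nuclei (%, y axis) in each of the 19 clusters (x axis); symbols are libraries, sorghum to the left and maize to the right in each cluster, and bars are group means. The maize libraries spread widely in cluster 0, between 11.8 and 23.6%, and the sorghum libraries lie above all maize libraries in cluster 10.

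Cluster 0 was the largest cluster of maize nuclei and lay in the same range of size as clusters 1 and 2 in sorghum. It took 13.1, 12.9 and 10.8% of nuclei in the sorghum libraries, against 15.0, 19.1, 11.8 and 23.6% in the maize libraries. The groups overlapped, since maize replicate 3 lay below Sorgh_Nucl and Sorgh_Nucl1. The log2 fold of sorghum over maize was −0.52 (SE 0.31, edgeR adjusted p = 0.515).

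Cluster 1 took 13.2, 9.99 and 8.30% of sorghum nuclei and 11.5, 11.0, 3.73 and 3.91% of maize nuclei. The maize libraries thus split into a pair near the sorghum values and a pair well below them, and the log2 fold was 0.60 (SE 0.41). Cluster 2, which took 12.1, 13.3 and 12.6% of sorghum nuclei and 10.6, 12.3, 13.8 and 9.03% of maize nuclei, had a log2 fold of 0.14 (SE 0.29). Its interval at the 95% level, from −0.47 to 0.74, was the narrowest among the 19 clusters and still allowed a moderate change in either direction.

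Cluster 10 was the 1 cluster of 19 (5.26%) in which the libraries of the species did not overlap. It took 4.97, 4.92 and 4.52% of nuclei in the sorghum libraries and 3.54, 4.26, 3.51 and 2.56% in the maize libraries. Every sorghum library lay above every maize library, by a small margin at maize replicate 2. The group means were 4.80 ± 0.25% in sorghum (SD, n = 3) and 3.47 ± 0.70% in maize (SD, n = 4), and the log2 fold of 0.48 (SE 0.31) did not pass the test (edgeR adjusted p = 0.515).

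The lowest and the highest log2 fold belonged to 2 of the smaller clusters. Cluster 14 took 2.42, 3.06 and 0.968% of sorghum nuclei and 4.42, 4.56, 1.81 and 2.80% of maize nuclei, with a log2 fold of −0.55 (SE 0.43). Cluster 18 took 0.520, 0.851 and 1.52% of sorghum nuclei and 1.77, 0.507, 0.213 and 0.719% of maize nuclei, with a log2 fold of 0.74 (SE 0.54). In cluster 18 the maize libraries held only 2, 5, 2 and 9 nuclei, and the Wilson interval of replicate 1 ran from 0.487 to 6.22% at the 95% level, for counting error only.

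Of the other 13 clusters, 7 had a log2 fold above 0 and 6 below 0. Several of them varied widely within a species. Cluster 5 took 5.44, 5.85 and 12.4% of sorghum nuclei and 2.65, 4.36, 9.48 and 5.67% of maize nuclei, and cluster 3 took 4.34, 4.44 and 6.45% of sorghum nuclei and 4.42, 1.62, 7.77 and 2.56% of maize nuclei. In cluster 13 the sorghum libraries lay close together, at 4.68, 4.20 and 4.24%, while the maize libraries held 1.77, 5.17, 8.52 and 5.43%.

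Pairs of libraries were also compared over all clusters at once, by the percentage of nuclei that would have to change cluster for the 2 compositions to be equal. This was 13.3 to 24.3% in the 12 pairs of a sorghum and a maize library (median 17.6%), 5.69 to 15.7% in the 3 pairs of sorghum libraries (median 14.5%) and 16.5 to 27.9% in the 6 pairs of maize libraries (median 23.3%). By this measure pairs of maize libraries lay as far apart as pairs across the species, which was not tested. Sampling noise raises the percentage in small libraries. The maize libraries held 113 to 1252 nuclei and the sorghum libraries 2169 to 3844, so the 3 medians are not directly comparable. Across the species, a chi-square test found no difference beyond sampling noise for maize replicate 1 against Sorgh_Nucl (13.3%, p = 0.642) and against Sorgh_Nucl1 (14.1%, p = 0.650). Among pairs of the same species, a chi-square test of nuclei per cluster found no difference beyond sampling noise only for maize replicates 1 and 2 (p = 0.228). Replicate 1 held only 113 nuclei and shared no barcode with replicate 2, so both were kept as separate libraries.

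The absence of calls does not show equal shares. The intervals at the 95% level reached down to a 0.365-fold share in cluster 14 and up to a 3.68-fold share in cluster 18. Leaving out maize replicate 3 gave 6 clusters with an unadjusted p under 0.05, and its lowest edgeR adjusted p was 0.0671, for cluster 3 (log2 fold 1.11, SE 0.37), which was still not called.

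Sorghum nuclei were shallower than maize nuclei, and the libraries did not start at the same minimum. Median UMIs per nucleus were 1166.5, 1929 and 1856 in the sorghum libraries, against 3422, 3917, 2589 and 4121.5 in the maize libraries. Median genes per nucleus were 985, 1368 and 1267 in the sorghum libraries, against 2262, 2413, 1872 and 2392.5 in the maize libraries. The groups overlapped in neither, with a difference of −1.10 in log2 UMIs and of −0.90 in log2 genes (sorghum minus maize, exact permutation p = 0.0286 for each, the smallest that 35 splits allow; adjusted p = 0.0381 over 4 tests).

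The shallowest nucleus in a library had 650, 1318 or 711 UMIs in sorghum and 1511, 1461, 1555 or 1495 UMIs in maize. The fewest genes in a nucleus were 601, 982 and 601 in the sorghum libraries and 1257, 1252, 1255 and 1253 in the maize libraries, so all maize libraries begin just above the same number of genes. With nuclei of at least 1600 UMIs and 1300 genes in both species, 31.1, 54.4 and 44.2% of the sorghum libraries and 98.2, 94.0, 97.0 and 97.7% of the maize libraries were kept. The difference in log2 UMIs was then −0.23 (exact permutation p = 0.514) and that in log2 genes −0.31 (p = 0.171), which ends both calls.

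That common minimum did not remove the clusters evenly in sorghum. It kept 78.6% of sorghum nuclei in cluster 14, 76.2% in cluster 16, 68.2% in cluster 18 and 64.1% in cluster 0, but only 21.8% in cluster 11 and 24.0% in cluster 15. In maize it kept between 91.8 and 100% in every cluster. Shares of deep and of shallow clusters therefore moved in opposite directions, and for 7 of the 19 clusters the sign of the log2 fold turned.

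Clusters 15 and 18 were the 2 with an unadjusted p under 0.05 at the common minimum, and neither was called. Cluster 15 then took 1.50, 1.95 and 2.29% of nuclei in the sorghum libraries and 3.60, 4.09, 6.15 and 2.53% in the maize libraries (log2 fold −1.12, SE 0.38, edgeR adjusted p = 0.180). Every sorghum library lay below every maize library there, whereas over all nuclei, at 3.77, 3.67 and 2.35% in sorghum and 3.54, 4.46, 6.07 and 2.48% in maize, they overlapped. Cluster 18 took 1.42, 1.37 and 1.36% in the sorghum libraries and 1.80, 0.539, 0.220 and 0.736% in the maize libraries (log2 fold 1.23, SE 0.48, edgeR adjusted p = 0.180).

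**Figure D2:**
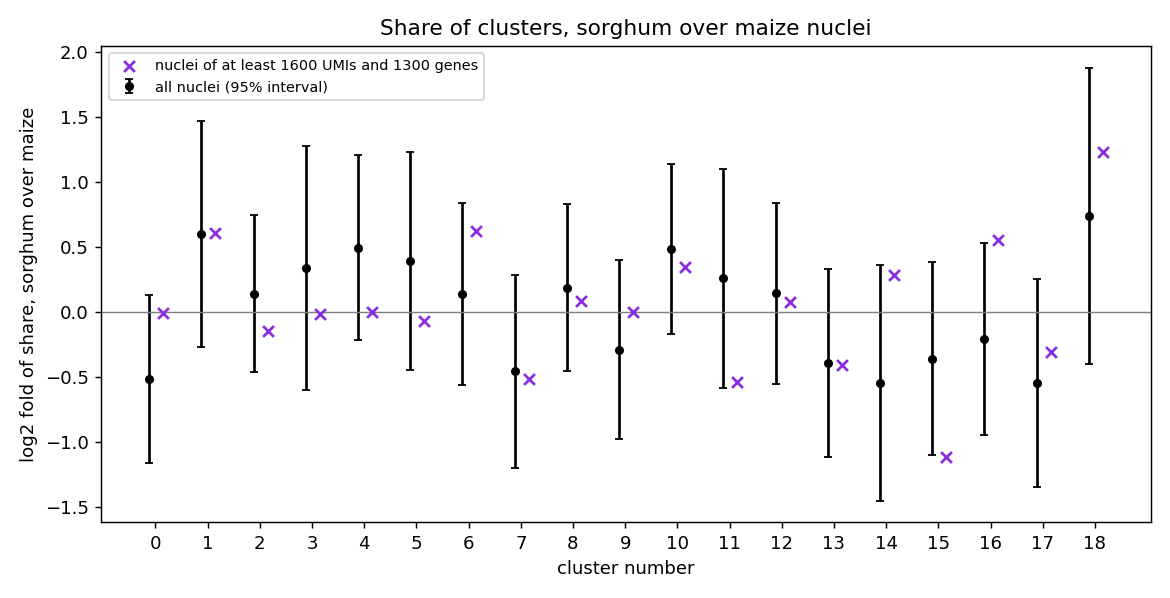
Log2 fold of each cluster's share, sorghum over maize (y axis), by cluster (x axis). Black points with 95% intervals (edgeR) are all nuclei, and crosses are nuclei of at least 1600 UMIs and 1300 genes; every interval includes 0, and clusters 11, 14, 15 and 16 lie far apart in the 2 sets.

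Within 2500 to 5000 UMIs no cluster was called, with 5 clusters at an unadjusted p under 0.05 and a lowest edgeR adjusted p of 0.131. Cluster 11 averaged 1.76 ± 1.33% of such nuclei in sorghum (SD, n = 3) and 5.21 ± 2.65% in maize (SD, n = 4), a log2 fold of −1.58 (SE 0.59), where over all nuclei it was 0.26. Cluster 15 averaged 1.19 ± 0.51% in sorghum and 3.90 ± 2.07% in maize, a log2 fold of −1.58 (SE 0.55). Both rest on few sorghum nuclei, 2, 11 and 8 in cluster 11 and 3, 11 and 3 in cluster 15. Cluster 6 averaged 5.12 ± 0.84% in sorghum and 2.47 ± 0.46% in maize, a log2 fold of 0.96 (SE 0.35), and cluster 1 averaged 11.8 ± 0.89% in sorghum and 6.14 ± 3.32% in maize, a log2 fold of 1.05 (SE 0.42). Cluster 18 had a log2 fold of 1.14 (SE 0.51).

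The clusters thus differed in how their UMIs stood within a library, which was measured as the median log2 UMIs of a cluster minus the median of these medians over the clusters of the library. All nuclei were used, and the shallowest had 650, 1318 and 711 UMIs in the sorghum libraries but 1461 to 1555 in the maize libraries. Shallow nuclei were therefore not cut off alike in the 2 species, which limits the comparison of these values. By limma, 0 of 18 clusters tested (0%) were called, and 2 had an unadjusted p under 0.05. Exact permutation per cluster called 0 as well, but it could not have called any. Only clusters 0, 1, 2 and 9 had values in 4 maize libraries, too few to pass the adjustment over 18 clusters. The others had 3 libraries against 3, where no p under 0.05 is possible. Cluster 14 stood out most. Its nuclei lay at 1.04, 1.51 and 0.97 log2 units above their library in the sorghum libraries, and at 0.20, 0.59 and 0.14 above it in maize replicates 2, 3 and 4, with under 10 nuclei in replicate 1.

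All sorghum values of cluster 14 lay above all maize values, and the difference was 0.86 (SE 0.20, limma adjusted p = 0.0534). That is a 1.82-fold higher UMI content relative to the library, and the adjusted p lay just above the threshold of 0.05. It was called without Sorgh_Nucl2 (0.97, adjusted p = 0.00275) and without maize replicate 3 (1.00, limma adjusted p = 0.0267). In absolute depth the median nucleus of cluster 14 had 2280, 5963 and 3641 UMIs in the sorghum libraries and 3519, 4510, 3792 and 4343 UMIs in the maize libraries. So this cluster lay above all maize libraries in Sorgh_Nucl1, above only maize replicate 1 (5 nuclei) in Sorgh_Nucl2, and below all of them in Sorgh_Nucl.

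Cluster 16 lay 1.24, 0.94 and 0.21 log2 units above the library in sorghum, and at −0.05, 0.18 and 0.08 in maize replicates 2, 3 and 4. The groups did not overlap, though Sorgh_Nucl2 lay close to the highest maize library, and the difference was 0.73 (SE 0.26, limma adjusted p = 0.224). Without Sorgh_Nucl2 it was 1.02 (limma adjusted p = 0.000866). Clusters 12 (0.12, higher in every sorghum library) and 13 (−0.17, lower in every sorghum library) were the other two without overlap, so that this held for 4 of 18 clusters (22.2%).

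Sorgh_Nucl2 stood apart from the other sorghum libraries in several clusters. Cluster 0 lay at 0.85 and 1.18 log2 units above the library in Sorgh_Nucl and Sorgh_Nucl1 but at −0.01 in Sorgh_Nucl2, and at 0.73, 0.37, 0.81 and 0.32 in the maize libraries. Cluster 9 lay at 0.78, 1.03 and −0.03 in the sorghum libraries and at 0.29, 0.76, 0.69 and 0.37 in the maize libraries. In both clusters Sorgh_Nucl2 was the lowest of the 7 libraries. Its UMIs were also concentrated in a narrow range, with quartiles at 1670 and 2191 UMIs, against 903 and 1988 in Sorgh_Nucl and 1563 and 4723.75 in Sorgh_Nucl1.

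**Figure D3:**
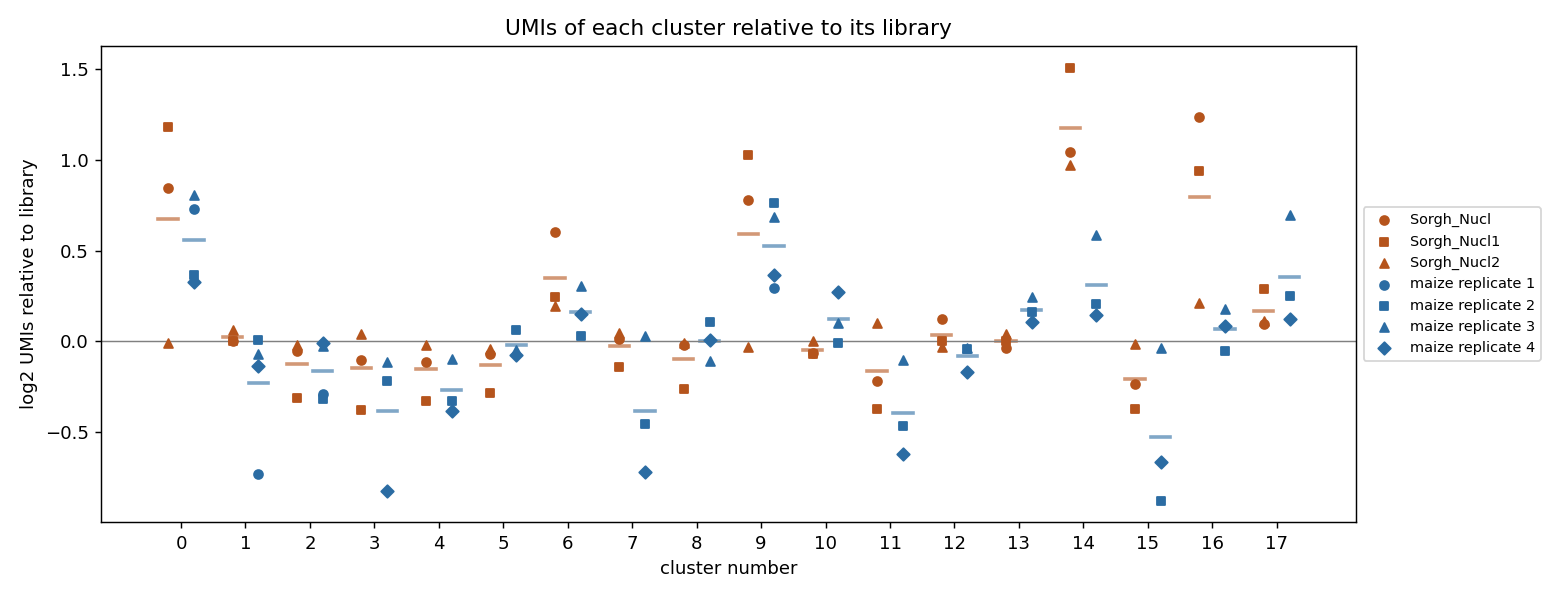
Median log2 UMIs of each cluster minus the library's median over clusters (y axis) for the 18 clusters tested (x axis); symbols are libraries with at least 10 nuclei in the cluster, sorghum left and maize right, bars are group means and the grey line is 0. The 3 sorghum libraries lie above the maize libraries in cluster 14, and Sorgh_Nucl2 lies near 0 in clusters 0 and 9.

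The second comparison asked whether a sorghum nucleus and a maize nucleus with the same number of UMIs held the same number of genes. They did not, in any cluster that could be tested. Genes were compared in nuclei of 2500 to 5000 UMIs, adjusted to 3500 UMIs with the slope of log2 genes on log2 UMIs within libraries and clusters (0.602). The fewest genes in a nucleus of that range were 1508, 1525 and 1546 in the sorghum libraries and 1747, 1786, 1783 and 1800 in the maize libraries, so the gene minimum of the maize libraries did not reach into it.

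At 3500 UMIs the libraries had 2085, 2012 and 2017 genes per nucleus in sorghum, against 2287, 2273, 2284 and 2216 genes in maize. Every sorghum library lay below every maize library. The means were 2038 ± 40.9 genes in sorghum (SD, n = 3) and 2265 ± 33.0 genes in maize (SD, n = 4). The difference was −0.15 in log2 genes, a change of −10.0% (exact permutation p = 0.0286, the smallest possible; adjusted p = 0.0381). These values rest on 435, 647 and 257 nuclei in the sorghum libraries and on 48, 419, 378 and 523 nuclei in the maize libraries. They represent 11.3 to 17.2% of a sorghum library, from its deep end, and 40.3 to 42.5% of a maize library.

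**Figure D4:**
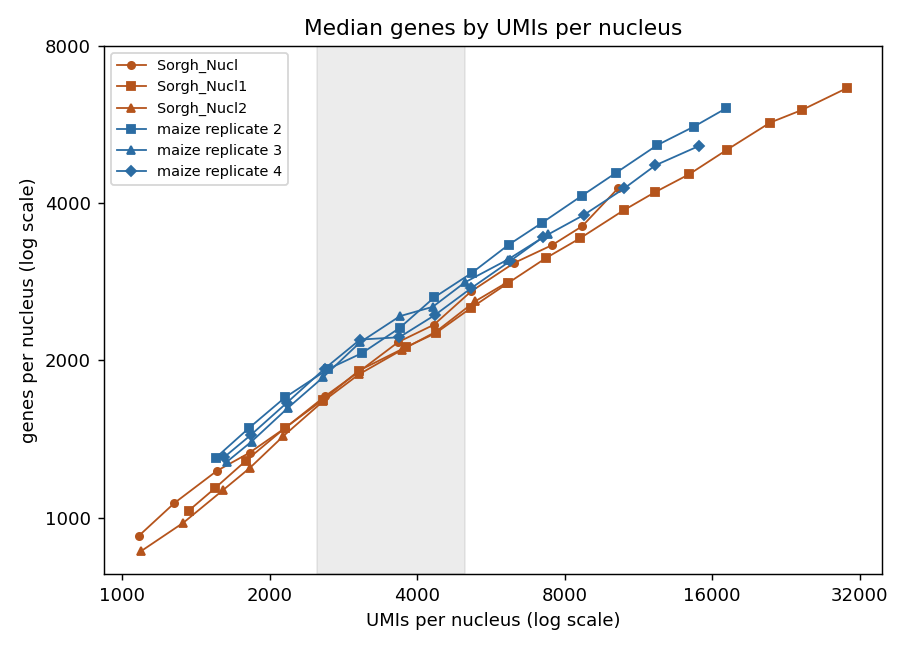
Median genes per nucleus (y axis, log scale) against median UMIs (x axis, log scale) in bins of 0.25 log2 units with at least 20 nuclei; lines are libraries, 3 sorghum and 3 maize (maize replicate 1 has no such bin), and the grey band marks 2500 to 5000 UMIs. In the band the sorghum lines run below the maize lines. The values adjusted to 3500 UMIs, which are not plotted, were 2012 to 2085 genes in the sorghum libraries and 2216 to 2284 in maize replicates 2 to 4.

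The rate at which genes were gained with UMIs did not separate the species. The slope of log2 genes on log2 UMIs within clusters was 0.681, 0.553 and 0.599 in the sorghum libraries and 0.685, 0.668, 0.636 and 0.515 in the maize libraries. The libraries overlapped, and the difference of −0.01 was smaller than the spread within either species (exact permutation p = 0.771). Single nuclei scattered within clusters around the 1 shared slope of 0.602, not around the slope of each library. The SD was 0.105, 0.0639 and 0.0488 log2 genes in the sorghum libraries and 0.0888, 0.0713, 0.0791 and 0.100 in the maize libraries.

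By cluster, 12 of the 19 clusters had at least 10 nuclei in the range in 2 or more libraries of each species. All 12 had fewer genes in sorghum, and all 12 (100%) were called by limma, with adjusted p from 4.03e-06 to 0.00163. The differences ran from −0.18 to −0.10 in log2 genes, with a median of −0.14. In all 12 clusters (100%) no sorghum library reached a maize library. The clusters come from the same 6 libraries, as replicate 1 of maize had too few nuclei for a value in any cluster, and so are not independent. Limma nevertheless pooled their spread as if they were, with 45 degrees of freedom for each cluster, so its p-values can be too small. Exact permutation per cluster called 0 (lowest adjusted p = 0.109), as 3 libraries against 3 cannot give a p under 0.05.

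Cluster 1 had the largest difference among the 12. At 3500 UMIs its nuclei held 2108, 2006 and 2028 genes in the sorghum libraries, against 2302, 2381 and 2253 genes in maize replicates 2, 3 and 4. The gap between the nearest libraries was wider than the range within sorghum. The difference was −0.18 (SE 0.03, a change of −11.4%), from 47, 81 and 31 sorghum nuclei and 40, 10 and 21 maize nuclei.

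Clusters 12, 8 and 5 followed. Cluster 12 had 2056, 2014 and 2066 genes in the sorghum libraries and 2340, 2297 and 2275 genes in the maize libraries (−0.17). Cluster 8 had 2058, 2022 and 2006 genes in the sorghum libraries and 2298, 2298 and 2252 genes in the maize libraries (−0.17). Cluster 5 had 2096, 2018 and 1983 genes in the sorghum libraries and 2273, 2280 and 2283 genes in the maize libraries (−0.17). In cluster 5 the maize libraries agreed within 10 genes, and the sorghum libraries spread over more than 100.

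Cluster 9 had the smallest difference among the 12 and also the fewest genes at 3500 UMIs in both species. It held 1978, 1948 and 1997 genes in the sorghum libraries and 2162, 2124 and 2081 genes in the maize libraries. The difference was −0.10 (SE 0.03, a change of −6.96%, limma adjusted p = 0.00129), and it was not called at 3000 to 6000 UMIs (−0.08, limma adjusted p = 0.0573) or at 4000 to 8000 UMIs (−0.08, limma adjusted p = 0.0871). Cluster 0 had 2078, 1975 and 2014 genes in the sorghum libraries and 2216, 2198 and 2137 genes in the maize libraries (−0.11).

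Cluster 7 had the highest mean of genes among the 12 in both species. It had 2275, 2083 and 2048 genes in the sorghum libraries and 2343, 2335 and 2366 genes in the maize libraries (−0.14). Sorgh_Nucl came close to maize there, and likewise in cluster 13, with 2220, 2017 and 2009 genes in the sorghum libraries and 2289, 2346 and 2282 genes in the maize libraries (−0.15). Cluster 2, at 2109, 2021 and 2012 genes in the sorghum libraries and 2241, 2284 and 2258 genes in the maize libraries, differed by −0.14.

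The other 3 tested clusters had a value in only 2 libraries of a species. Cluster 14 had 2033 and 2027 genes in Sorgh_Nucl and Sorgh_Nucl1 and 2294, 2218 and 2205 genes in the maize libraries (−0.14). Cluster 6 had 2132, 2028 and 2041 genes in the sorghum libraries and 2290 and 2226 genes in maize replicates 2 and 4 (−0.13). Cluster 10 had 2086 and 2011 genes in Sorgh_Nucl and Sorgh_Nucl1 and 2235, 2276 and 2135 genes in the maize libraries (−0.11), and without maize replicate 2 it was not called (limma adjusted p = 0.0571).

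Of the other 7 clusters, 4 had a value in at least 1 library of each species, with no test. Cluster 3 held 2178, 2041 and 2000 genes in the sorghum libraries and 2305 in maize replicate 3. Cluster 16 held 2050, 2061 and 2053 genes in the sorghum libraries and 2297 in maize replicate 2. Cluster 11 held 2049 genes in Sorgh_Nucl1 and 2327, 2303 and 2359 in the maize libraries, and cluster 15 held 2107 in Sorgh_Nucl1 and 2340 and 2323 in maize replicates 2 and 3. In all 4 the sorghum values lay below the maize values, while clusters 4, 17 and 18 lacked a sorghum value.

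**Figure D5:**
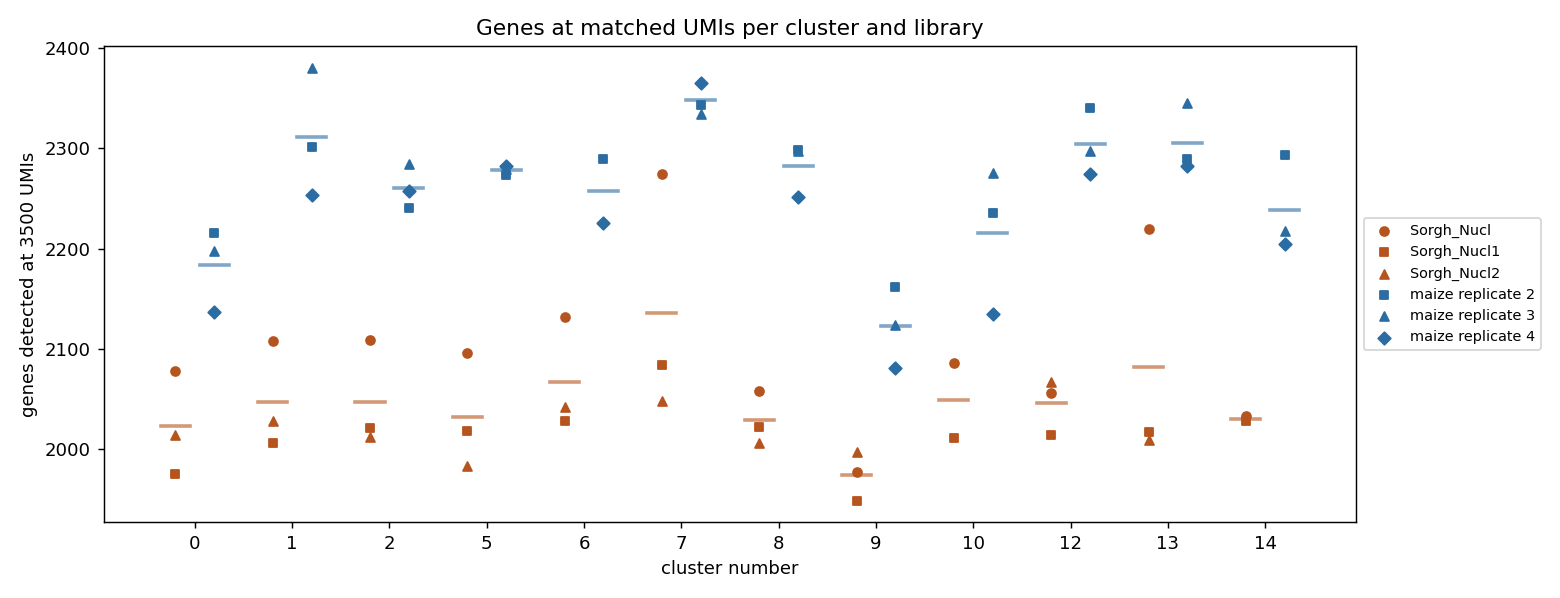
Genes per nucleus at 3500 UMIs (y axis, which does not start at 0) in the 12 clusters tested (x axis); symbols are libraries with at least 10 nuclei of 2500 to 5000 UMIs in the cluster, sorghum left and maize right, and bars are group means. Sorghum lies below maize in all 12 clusters, and cluster 9 is lowest in both species.

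Whether some clusters departed from the general difference was tested after the mean over the 9 clusters present in all 6 libraries was subtracted from each library's values. By limma, 0 of 12 clusters (0%) were called, 0 had an unadjusted p under 0.05, and the lowest adjusted p was 0.333. Exact permutation per cluster called 0 too, but with at most 3 libraries against 3 it could not give a p under 0.05. Cluster 9 departed by 0.04 (SE 0.02), cluster 0 by 0.04 (SE 0.02) and cluster 1 by −0.03 (SE 0.02). Without Sorgh_Nucl, cluster 9 was called (0.06, limma adjusted p = 0.00804).

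With each cluster given equal weight the difference between the libraries was also −0.15 (exact permutation p = 0.1, the smallest that 20 splits allow). Each species was a single strain and, per the labels, a single kit version, and whether the genes counted were all genes of a species or those shared between species was not given in the sources used here. Species, gene annotation and library preparation cannot be told apart in this design.

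Nuclei of Setaria viridis (strain A10.1, 2 libraries labelled version 3, tips of 0.2 cm after 15 days) gave another value. With a slope shared by all 9 grass nuclei libraries, the libraries had 2091, 2003 and 2023 genes at 3500 UMIs in sorghum, 2290, 2270, 2290 and 2209 in maize, and 1924 and 1915 in Setaria. Every sorghum library lay above both Setaria libraries, by 0.09 in log2 genes on average (exact permutation p = 0.1, the smallest that 10 splits allow), and so between maize and Setaria. In shares, 0 of 19 clusters (0%) were called between sorghum and Setaria nuclei by edgeR, with 3 at an unadjusted p under 0.05 and a lowest adjusted p of 0.295. This comparison and the one with maize share the sorghum libraries.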

How the data were processed

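For each nucleus the deposited table lists a raw count of UMIs and a count of genes, as the authors made them, beside its library and cluster. Cell Ranger 5.0.1 and Seurat 4.0 are named by the submitters' processing notes. Genome builds of the grasses, filters on nuclei and doublet removal were not given in the sources used here, and no filter was added. From the table, 3 libraries of another study (4324 cells) were left out. Libraries took their group from species and preparation; the names of the sorghum libraries do not fix which replicate each is, on which no value depends. Total UMIs per library were 5111739 to 15690915 in sorghum nuclei and 536441 to 6475157 in maize nuclei; a cluster with 0 nuclei could make up 2.65% of maize replicate 1 (3 counts). The smallest library therefore gives the least precise shares. Wilson intervals of single libraries cover counting error only, while the edgeR intervals of the log2 folds also include the spread between libraries.

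The test of shares was edgeR's quasi-likelihood test (4.0.16, robust and without trend) on nuclei per cluster, with total nuclei as library size, for clusters of at least 10 nuclei. Genes at matched UMIs and relative UMIs used limma 3.58.1 (robust eBayes) on 1 value per library and cluster (at least 10 nuclei, at least 2 libraries per species), and single values an exact two-sided permutation over libraries, in R 4.3.3. All tests were two-sided, adjusted by Benjamini-Hochberg over the clusters or the 4 library tests, with a threshold of 0.05. Alternatives were DESeq2 1.42.0, other scalings, windows, minima and left-out libraries. The tests were checked on simulated data in which clusters of a library varied independently, so the check does not cover spread that the clusters of a library share. All clusters are named by number. The libraries compared, tests and alternatives were chosen with earlier results of these data known.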

Additional observations from a re-analysis of the deposited data

How the results depend on the processing

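No paired analysis was possible because the sorghum library names match no replicate number and the groups are different species. Shares gave 0 calls under every alternative run, but the sign of single uncalled log2 folds turned. With nuclei of at least 1600 UMIs and 1300 genes they were −0.15 (cluster 2), −0.020 (cluster 3), −0.0056 (cluster 4), −0.075 (cluster 5), −0.54 (cluster 11), 0.28 (cluster 14) and 0.55 (cluster 16). With nuclei of 2500 to 5000 UMIs they were 0.20 (cluster 0), −0.41 (cluster 2), −0.27 (cluster 4), −0.20 (cluster 5), 0.073 (cluster 9), −1.58 (cluster 11) and 0.57 (cluster 16). Leaving out each library moved cluster 5 between −0.087 and 0.73, cluster 12 between −0.14 and 0.38, and cluster 6 between −0.020 and 0.32.

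For genes at matched UMIs, 5 of 6 clusters were called at 4000 to 8000 UMIs and 5 of 5 with at least 20 nuclei per value, where fewer clusters had values. Exact permutation per cluster called 0 (lowest adjusted p = 0.109), and 3 libraries against 3 cannot give a p under 0.05. Leaving out a library gave 10 to 12 calls, each with fewer genes in sorghum. Relative to the library, 0 to 1 cluster was called when a library was left out, and neither 4000 to 8000 UMIs nor 20 nuclei per value could give a value. Relative UMIs gave 1 call with at least 5 nuclei per value, and 0 to 2 when a library was left out; cluster 13 was 0.093 at the common minimum. By library, the log2 gene difference at 3500 UMIs was −0.15 with clusters weighted equally and −0.17 to −0.14 with a library left out, where the smallest possible p is 0.0667 or 0.1. The slope difference was 0.018 at 2000 to 4000 UMIs and −0.051 to 0.014 with a library left out. Without matching, UMIs and genes differed by −0.23 and −0.31 at the common minimum, and by −1.24 to −0.87 and −0.99 to −0.76 with a library left out; the cause of these shifts was not tested. The number of nuclei, 113, limits shares in maize replicate 1. Few nuclei in the range limit values at matched UMIs, where 7 clusters had no test and clusters 4, 17 and 18 lacked a sorghum value.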
